A study of Rattus norvegicus with 22 samples.

Results

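The miRNAs described here are every name in the deposited tables of the miR-128, miR-129 and miR-153 families, whatever the copy or arm, taken by the number alone. There were 10 such names among 468. They were rno-miR-128, rno-miR-128-3p, rno-miR-128-1-5p, rno-miR-128-2-5p, rno-miR-129, rno-miR-129-5p, rno-miR-129-1-3p, rno-miR-129-2-3p, rno-miR-153-3p and rno-miR-153-5p, where rno marks the rat and is left out from here on. A name ending in 5p or 3p is an arm of the hairpin precursor, and a number before the arm is the gene copy it comes from. The names miR-128 and miR-129 carry no arm.

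Small RNA was sequenced from the hippocampus (the CA1 region, per the protocol in the labels) of male Long Evans rats, a pigmented outbred strain. The treated group received chlorpyrifos (CPF), an organophosphate insecticide that inhibits acetylcholinesterase, under the skin at 10 mg/kg body weight each day for 21 days, the higher of the doses that the labels name. The control group received injections of the peanut oil vehicle over the same 21 days. All rats were 11 weeks old at the first dose and 14 weeks old at sampling, and each group had 11 libraries. Per the labels some of the rats went through fear conditioning before sampling, but not which libraries came from them. No animal is named for a library either, so a p-value here is set by the spread from library to library, which may be partly technical.

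All 3 families are known from the brain. miR-128 is an abundant neuronal miRNA that is known to hold down genes of ion channels and of signalling that raise the excitability of neurons. miR-129 is known for its part in the scaling of synapses to neuronal activity and for repressing a voltage-gated potassium channel, and miR-153 for targets in the release of synaptic vesicles. A mature miRNA finds its targets mainly through its seed, bases 2 to 8 from the 5′ end.

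The mature sequences are shown because the seed sets which names could act on the same targets, and because identical copies decide which names can be told apart. 8 of the 10 names matched a mature miRNA of RefSeq (rat, GRCr8), and miR-128 and miR-129 did not. The seed is in capitals, 5′ to 3′.
miR-128-3p: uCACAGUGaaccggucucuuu
miR-128-1-5p: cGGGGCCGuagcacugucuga
miR-128-2-5p: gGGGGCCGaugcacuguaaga
miR-129-5p: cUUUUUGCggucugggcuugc
miR-129-1-3p: aAGCCCUUaccccaaaaag
miR-129-2-3p: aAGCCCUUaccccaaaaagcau
miR-153-3p: uUGCAUAGucacaaaagugauc
miR-153-5p: gUCAUUUUugugauguugcagcu

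The 8 sequences hold 6 different seeds. miR-128-3p is the same in its 2 gene copies, and so is miR-129-5p, so reads of these arms cannot be given to a copy. The 3p arms of the miR-129 copies share a seed, and miR-129-1-3p, 19 bases long, is the start of miR-129-2-3p, which has 3 more bases. The 5p arms of the miR-128 copies also share a seed, but they differ at 5 of 21 positions, counted from 1 at the 5′ end of miR-128-1-5p (C1G, U9A, A10U, C18A and U19A). No seed was shared between families.

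In GRCr8, a later build than the rn4 named in the submitters' processing notes, the hairpin of miR-128-1 lies at chr13:42251884-42251965 (plus strand), within the span of R3hdm1. That of miR-128-2 lies at chr8:120963795-120963878 (minus strand), within the span of Arpp21, which codes for a phosphoprotein of neurons, and of a long non-coding RNA gene. miR-129-1 lies at chr4:58589711-58589782 (plus strand), within a long non-coding RNA gene, and miR-129-2 at chr3:100657390-100657486 (minus strand), with no other gene over it. miR-153 lies at chr6:144306594-144306680 (plus strand), within the span of Ptprn2, which codes for a protein of secretory vesicles, and of a long non-coding RNA gene. The table gives no strand for the genes that span the hairpins, and exons and introns were not compared.

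Levels are given in RPM, the deposited unit, which scales the reads on miRNA names to a common total, and are not corrected for the length of a miRNA or for how well it is ligated. Depth was low, at about 47844 to 94980 reads per library by the step between low values. A single read was worth 10.5 to 20.9 RPM. The floor below which a level is not read was set at 3 reads, or 31.6 to 62.7 RPM. Floors cover counting error only, since the reads carry no molecular identifiers. miRNAs of neurons (the miR-9, miR-124, miR-128, miR-137 and miR-138 families) took 5.22 to 7.66% of RPM in control and 4.87 to 7.59% in CPF libraries, and those of smooth muscle and vessel wall 22.2 to 28.4% and 22.1 to 31.3%. Most of the neuron list was miR-9a-5p (mean 51643 RPM), and the list also holds the miR-128 names. Most of the vessel wall list was miR-143-3p (mean 263757 RPM). CPF replicate 1, the deepest library, stood apart for miR-153-3p. CPF replicates 7, 8 and 9 stood apart for the summed level of 5 names of the choroid plexus and ependyma, the lining of the ventricles. The sums were 1497, 3909 and 6103 RPM. The other 19 libraries lay between 264 and 737 RPM. Not every name stood apart. Most of the sum in replicate 9 was miR-1298 (3929 RPM). For miR-448-3p, replicate 7 (120.3 RPM) was close to CPF replicate 1 (115.8 RPM). miR-448-5p and miR-211-5p averaged 10.4 and 2.43 RPM over all libraries, under the floor. CPF replicate 9 was also the shallowest library. Where leaving out these 4 libraries turns or clearly moves a value named here, the value without them is given too.

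The 3 families differed widely in level. miR-128 was the most abundant, at rank 18 of 468 names by mean RPM, with 5528, 7688 and 10015 RPM as the lowest, median and highest control libraries and 5184, 7606 and 10551 RPM in CPF. Next came miR-129-2-3p, at 1136, 1593 and 1898 RPM in control and 1003, 1557 and 2205 RPM in CPF. miR-128 lay above miR-129-2-3p in 22 of 22 libraries, and the ranges of these names did not meet.

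miR-128-3p and miR-153-3p followed at close levels. miR-128-3p was the higher of the pair in 17 of the 21 libraries other than CPF replicate 1, and their ranges overlapped. miR-129-5p, which has the same sequence in both gene copies, was at 99.6, 139 and 224 RPM in control and 74.2, 165 and 284 RPM in CPF, and stood below miR-153-3p in all 21 of those libraries.

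Below these, miR-153-5p (0, 54.9 and 170 RPM in control, 30.0, 49.8 and 93.5 RPM in CPF) and miR-129 (0, 52.7 and 72.2 RPM in control, 0, 53.5 and 85.7 RPM in CPF) came to about 3.09 to 5.0 reads per library by group mean. These names could not be ordered, since miR-153-5p was above miR-129 in 12 of 22 libraries. The 3 remaining names were near 0. miR-128-1-5p was above 0 in 8 libraries with at most 23.0 RPM, miR-128-2-5p in 7 with at most 29.9 RPM, and miR-129-1-3p in 3 with at most 21.1 RPM. All 3 are under the floor, so their levels were not measurable at this depth.

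**Figure D1:**
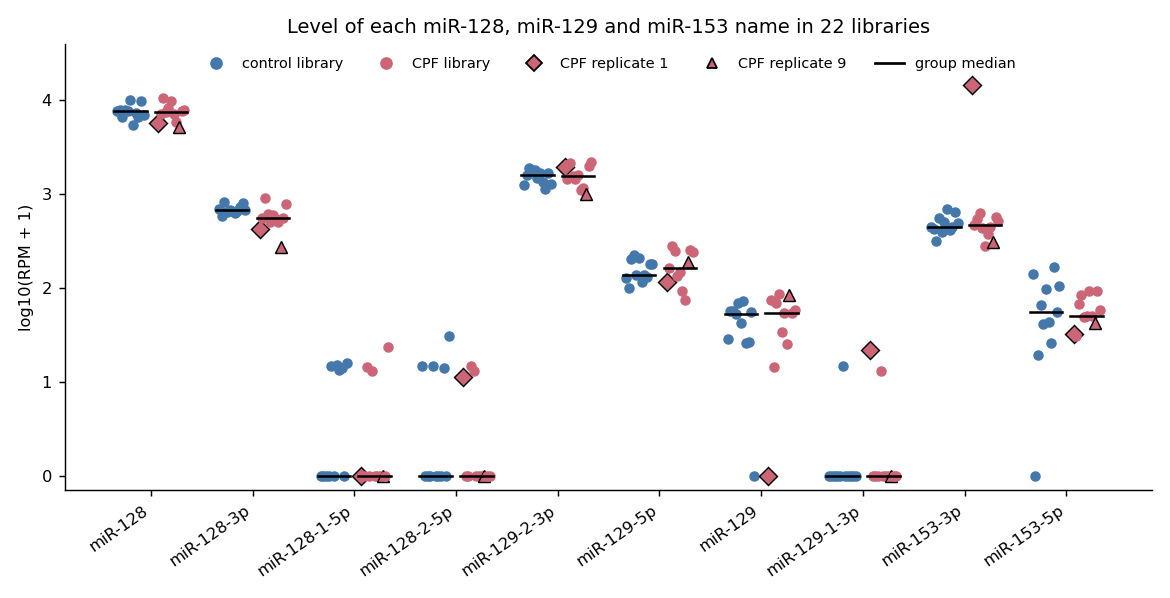
Level of the 10 names as log10(RPM + 1) in each of the 22 libraries (points, control in blue, CPF in red), with the median of each group as a bar. The groups overlap for every name. CPF replicate 1 (diamond) lies far above all others for miR-153-3p, and CPF replicate 9 (triangle) is lowest for miR-128-3p.

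In the miR-129 and miR-153 families the 3p names held most of the reads. Summed over all libraries, miR-129-2-3p had 9.40 times the RPM of miR-129-5p (16.8 times in CPF replicate 1, 9.16 times in the other 21 libraries) and was above it in 22 of 22 libraries. Its 3p names made up 88.5 ± 1.55% of all miR-129 RPM in the control group and 87.5 ± 4.24% in the treated group (SD, n = 11 each). miR-153-3p had 7.0 times the RPM of miR-153-5p in control and 7.44 times in CPF without replicate 1 (n = 10). For miR-128 the 5p arms stood at 0.273 to 0.455 reads per library by group mean, against 43 to 48.9 reads for miR-128-3p and 546 to 560 for miR-128.

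The comparison of CPF with control asked which miRNAs of the hippocampus differed after 21 days of dosing. 7 of the 10 names had at least 10 RPM in at least 11 libraries and were tested with limma among 273 names. As a read was worth at least 10.5 RPM, this filter asks for only 1 read, less than the floor of 3 reads. 0 of the 7 passed an adjusted p of 0.05. Over all names 0.733% were called, so a count of 0 among 7 names is near this background. With a filter of at least 50 RPM in at least 11 libraries, 2 of 181 names and 0 of the 7 were called. 1 of the 7, miR-128-3p, had an unadjusted p under 0.05, against 6.59% of all names tested. The median log2 fold change of the 7 was 0.09, beside 0.02 over all 273 names, with 5 above 0 and 2 below.

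miR-128-3p was the member with the smallest p. Control libraries had 583, 674 and 837 RPM as the lowest, median and highest values, and CPF libraries 272, 555 and 919 RPM. 7 of the 11 CPF libraries lay below the lowest control library, while CPF replicate 3 lay above the highest, so the groups overlapped. The means were 693 ± 74.8 RPM in control and 572 ± 171 RPM in CPF (SD, n = 11 each), or about 48.9 and 43.0 reads. By limma the log2 fold change was -0.33 (SE 0.139, 95% CI -0.61 to -0.05, unadjusted p = 0.0248, adjusted p = 0.533). It was the third smallest p among names with lower values in CPF, 12th among all 273 names, and does not stand after adjustment.

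The lowest miR-128-3p value, 272 RPM or 13 reads, was that of CPF replicate 9. Without this library the log2 fold change was -0.23, and without all of CPF replicates 7, 8 and 9, which were high in miRNAs of the choroid plexus and ependyma, it was -0.19 (SE 0.123, limma adjusted p = 0.883), with a CPF mean of 621 ± 159 RPM (SD, n = 8). Replicates 7 and 8 had 548 and 507 RPM. Replicate 9 also had the highest share of the vessel wall list (31.3% of RPM) and of the thalamus and hypothalamus list (0.376%). Each share rests mostly on a single name. For the vessel wall it is miR-143-3p (mean 263757 RPM over all libraries, against 1588 RPM for miR-126a-3p, the next on the list). For the thalamus and hypothalamus it is miR-182, at 3532 RPM in replicate 9. Neither share therefore shows that a set of markers was raised together. The part of cell types in the miR-128-3p difference was not tested, and in bulk tissue fewer cells of a type and less RNA per cell cannot be told apart.

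The more abundant name miR-128 was close between groups. Its means were 7674 ± 1352 RPM in control and 7558 ± 1626 RPM in CPF (SD, n = 11 each), with a log2 fold change of -0.03 (95% CI -0.26 to 0.19, limma adjusted p = 0.972). 4 of 11 CPF libraries lay above the control median and 7 below. In fold terms the interval runs from 0.838 to 1.14. With both names summed to a single one, the log2 fold change was -0.06 (SE 0.107, limma adjusted p = 0.942). How the authors divided reads between the names is not given in the sources used here, and which arm the reads named miR-128 come from was not tested.

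The share of miR-128-3p in the RPM of the pair was therefore compared as well, a comparison chosen with the results above known. It was 8.46 ± 1.53% in control (lowest 6.19%, highest 11.2%) and 6.98 ± 1.18% in CPF (lowest 4.98%, highest 9.08%; SD, n = 11 each). The difference of -1.48 percentage points had a two-sided permutation p of 0.0202 and an adjusted p of 0.0607 over the 3 shares tested. It did not pass, and leaving out a single library gave adjusted p-values on both sides of the threshold. They fell below it without control replicate 6 (0.0208), control replicate 2 (0.0350), CPF replicate 11 (0.0212) or CPF replicate 3 (0.0488).

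**Figure D2:**
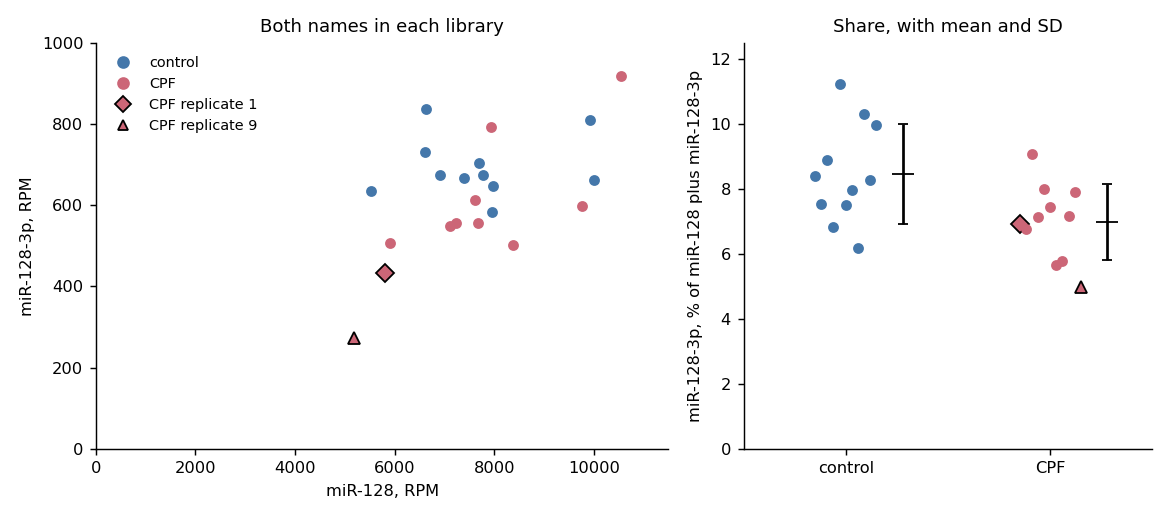
Left, miR-128-3p against miR-128 in RPM for each library (control in blue, CPF in red). Right, miR-128-3p as a percentage of miR-128 plus miR-128-3p per library, with the mean and SD of each group beside the points (8.46 ± 1.53% and 6.98 ± 1.18%). The groups overlap on both axes, and CPF replicate 9 (triangle) is lowest in both names and in the share.

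In the miR-129 family no name differed between groups beyond the spread. miR-129-2-3p, the main product, averaged 1551 ± 261 RPM in control and 1608 ± 421 RPM in CPF (SD, n = 11 each), with a log2 fold change of 0.02 (95% CI -0.24 to 0.29, limma adjusted p = 0.974). CPF libraries spread more widely than control libraries on both sides, with 4 above the highest control and 2 below the lowest. The low ones, CPF replicates 9 and 7 at 1003 and 1123 RPM, were among the 3 libraries high in choroid plexus and ependyma miRNAs. Without those 3 the log2 fold change was 0.21 (SE 0.112, limma adjusted p = 0.883).

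miR-129-5p, the arm known for its potassium channel target, averaged 159 ± 42.4 RPM in control and 177 ± 71.1 RPM in CPF. Its log2 fold change was 0.09 (95% CI -0.38 to 0.55, limma adjusted p = 0.972). Again CPF libraries spread on both sides, with 4 above the highest control and 2 below the lowest. The low ones were CPF replicates 8 and 7, at 74.2 and 93.5 RPM. Without CPF replicates 7, 8 and 9 the CPF mean was 199 ± 64.4 RPM (SD, n = 8) and the log2 fold change 0.30 (SE 0.214, limma adjusted p = 0.929). At about 11.2 and 13 reads per library, counting alone gives a coefficient of variation near 29.9% and 27.7%, beside the observed 26.7% and 40.2%.

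For miR-129, the name with no arm, the 3.09 and 3.55 reads per library by group mean left an interval of -1.37 to 1.54 on the log2 scale (log2 fold change 0.09, limma adjusted p = 0.974). It was listed at 0 in control replicate 11 and CPF replicate 1. Without CPF replicate 1 the log2 fold change was 0.60 (SE 0.575, limma adjusted p = 0.833). Without control replicate 11 it was -0.42 (SE 0.581, limma adjusted p = 0.966), and without CPF replicates 7, 8 and 9 it was -0.10 (SE 0.802). Summed with miR-129-5p, the log2 fold change was 0.10 (SE 0.204, limma adjusted p = 0.942). The 3p share of the family did not pass (difference -1.01 percentage points, permutation p = 0.483, adjusted p = 0.725), nor did that of miR-129-1-3p among the 3p names, which were almost all miR-129-2-3p (0.085 ± 0.282% and 0.173 ± 0.389%, permutation p = 0.738, adjusted p = 0.738). The latter share cannot compare the gene copies, since miR-129-1-3p was above 0 in only 3 libraries and its sequence is the start of miR-129-2-3p.

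**Figure D3:**
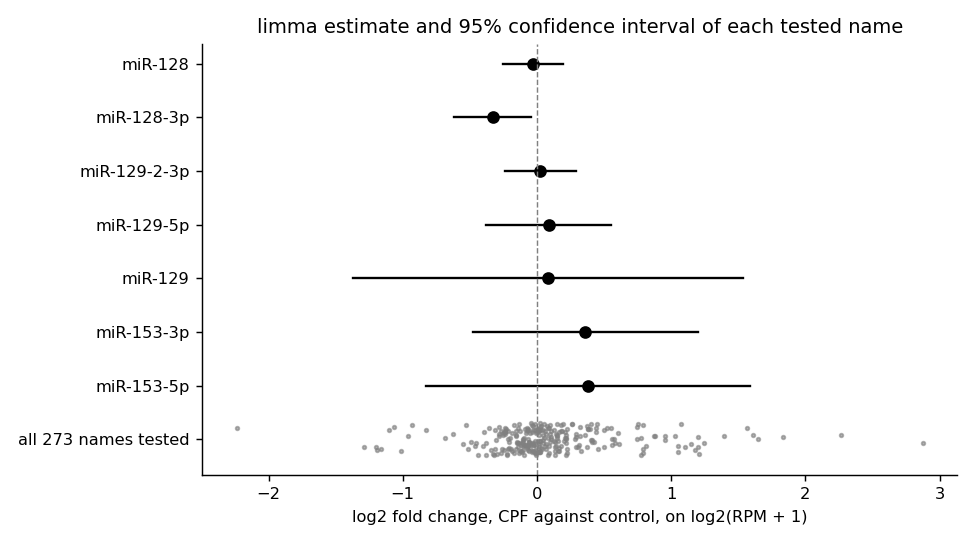
limma log2 fold change of CPF against control on log2(RPM + 1), with its 95% confidence interval, for the 7 names tested, above the estimates of all 273 names tested (grey points, spread vertically at random). The interval of miR-128-3p (-0.61 to -0.05) leaves out 0 before adjustment, and the other 6 include it.

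For miR-153-3p a single library set the group mean. Control libraries had 316, 450.6 and 693 RPM as the lowest, median and highest values, and the CPF libraries other than replicate 1 had 282, 455 and 626 RPM. CPF replicate 1 was at 14435 RPM, about 1371 reads, or 20.8 times the next highest library. The CPF mean was 1728 ± 4216 RPM with this library (n = 11) and 457 ± 111 RPM without it (n = 10), against 486 ± 110.0 RPM in control (SD, n = 11). The limma log2 fold change was 0.36 (95% CI -0.48 to 1.2, adjusted p = 0.917) with it. Without it the sign turned, to -0.10 (SE 0.148, adjusted p = 0.933). Without CPF replicates 7, 8 and 9, and with replicate 1 kept, it was 0.63 (SE 0.452, adjusted p = 0.929).

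The other arm of the same hairpin was not high in that library. miR-153-5p was at 31.6 RPM, or 3 reads, the fifth lowest of 22 values, so the ratio of 3p to 5p was 457 there. The level of miR-153-3p went with the read number of the libraries at r = 0.55 (permutation p = 0.0336, adjusted p = 0.235 over 7 names) and rho = 0.34 (permutation p = 0.116, adjusted p = 0.636), with r = 0.61 without the 2 libraries farthest in read number. Without CPF replicate 1, both the deepest library and the highest in miR-153-3p, r was 0.54 (permutation p = 0.0113, adjusted p = 0.0792) and rho 0.25 (permutation p = 0.281, adjusted p = 0.666). That r fell to 0.22 without the 2 libraries then farthest in read number, so it rests on them. Among 146 names with a median of at least 100 RPM, 3 had a library more than 2 times above the next highest. All 3 were in CPF replicate 1, with miR-181a at 17688 RPM (4.34 times the next) and miR-181a-5p at 17488 RPM (4.23 times) beside miR-153-3p. The miR-181a names also had close medians in the other libraries (2492 and 2538 RPM), and whether they are separate miRNAs was not tested. These 3 names took 4.96% of that library's RPM, against 0.326 to 0.852% in the others. With RPM taken over the names other than these 3, the log2 fold change was -0.32 for miR-128-3p and -0.03 for miR-128, close to the values with these names included.

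Of the remaining members, CPF replicate 1 had the second lowest miR-128-3p (432 RPM), the third lowest miR-128 (5801 RPM) and the fourth highest miR-129-2-3p (1948 RPM). It also had the lowest share of the neuron list (4.87% of RPM), which includes both these miR-128 names. miR-9a-5p, most of that list, was at 34986 RPM against a median of 53173 RPM in the other libraries. miR-138 was low too (94.8 against 241 RPM). miR-9a-3p (3748 against 3133 RPM), miR-138-5p (2443 against 2336 RPM), miR-137-3p (347 against 314 RPM) and miR-124-3p (748 against 751 RPM) were not low.

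**Figure D4:**
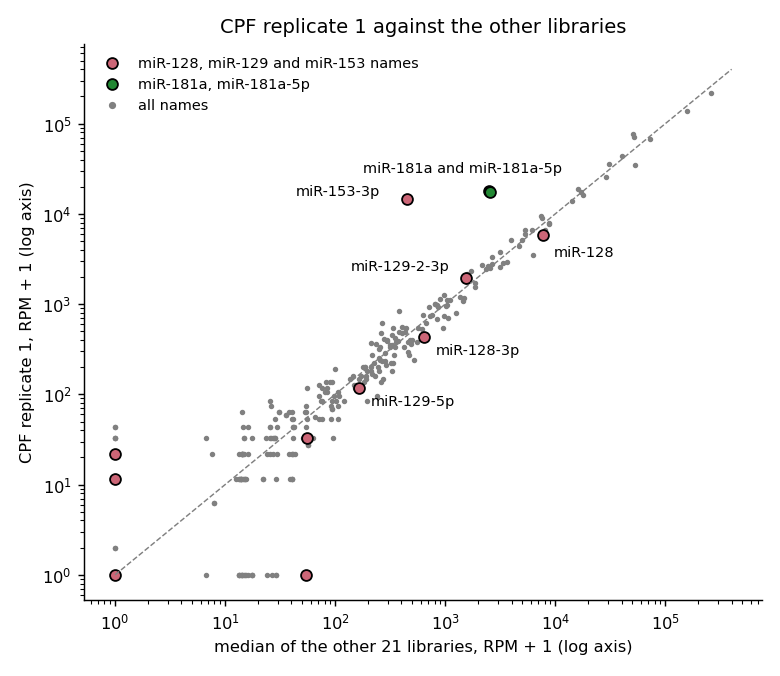
RPM + 1 of every name in CPF replicate 1 against the median of the other 21 libraries, both on log axes, with equality as a dashed line. miR-153-3p (14435 RPM against a median of 450.6) and the overlapping points of miR-181a and miR-181a-5p lie far above the line, while the other miR-128, miR-129 and miR-153 names with at least 100 RPM lie near it.

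miR-153-5p averaged 69.4 ± 53.2 RPM in control and 58.8 ± 22.7 RPM in CPF (SD, n = 11 each). Its limma log2 fold change had the opposite sign, 0.38 (95% CI -0.82 to 1.58, adjusted p = 0.954). It was listed at 0 in control replicate 2, and without that library the log2 fold change was -0.16. At about 5.0 and 4.36 reads per library, no direction could be read.

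The libraries carry code numbers whose first digit divides each group, into 1 (n = 5) and 4 (n = 6) for control and 3 (n = 6) and 6 (n = 5) for CPF. Neither the meaning of the digit nor which digits belong together is given, so all 4 contrasts between a CPF and a control digit were run. miR-128-3p averaged 689 ± 94.2 RPM at digit 1, 696 ± 63.8 RPM at digit 4, 602.9 ± 168 RPM at digit 3 and 535 ± 185 RPM at digit 6 (SD). Its log2 difference was below 0 in all 4 contrasts, from -0.45 (6 against 4) to -0.22 (3 against 1). The contrasts share libraries, and no member passed in any (lowest limma adjusted p = 0.530), where 0 to 0.733% of all names were called (0.366% for 3 against 1 and for 6 against 4). All 4 contrasts of miR-129-2-3p lay within -0.22 to 0.23. The digit 6 libraries include CPF replicates 7, 8 and 9, which had 548, 507 and 272 RPM of miR-128-3p. The remaining digit 6 libraries, CPF replicates 10 and 11, had 557 and 793 RPM. The digit contrasts were not run without replicates 7, 8 and 9, so the shared sign does not separate the digits from these libraries.

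Whether the members vary together across libraries was asked of each pair. Of 21 pairs among the 7 tested names, 0 passed an adjusted p of 0.05 by Pearson's r or by Spearman's rho (permutation test over 22 libraries). At an unadjusted p under 0.05 there were 5 pairs by r and 2 by rho. The smallest p by r belonged to miR-128 and miR-128-3p (r = 0.58, permutation p = 0.00417, adjusted p = 0.0876, rho = 0.36, permutation p = 0.0978, adjusted p = 0.285). Without the 2 libraries farthest from the median of miR-128, r was 0.46. Within CPF libraries r was 0.81 (permutation p = 0.00223, adjusted p = 0.0468), and 0.54 without the 2 farthest, while within control libraries it was 0.08 (permutation p = 0.817, adjusted p = 0.999). By rho this pair did not pass within CPF (0.75, permutation p = 0.0114, adjusted p = 0.210) or within control libraries (-0.19, permutation p = 0.576, adjusted p = 0.863). The difference between the groups was not tested. miR-129 and miR-153-3p had r = -0.62 (permutation p = 0.0406, adjusted p = 0.204) and rho = -0.14 (permutation p = 0.520, adjusted p = 0.683), and r was 0.04 without the 2 farthest libraries, so that relation rests on them.

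Both main miR-129 arms, miR-129-2-3p and miR-129-5p, had r = 0.51 (permutation p = 0.0166, adjusted p = 0.147) and rho = 0.50 (permutation p = 0.0202, adjusted p = 0.285), with r = 0.57 without the 2 farthest libraries. For both arms of miR-153 the relation did not pass (r = -0.02, permutation p = 0.900, adjusted p = 0.951, rho = 0.25, permutation p = 0.254, adjusted p = 0.444). Without CPF replicate 1 this pair had r = 0.22 (permutation p = 0.325, adjusted p = 0.525) and rho = 0.36 (permutation p = 0.106, adjusted p = 0.264), and at about 5.0 reads of miR-153-5p per library a relation could be missed. The points of these pairs share the library, its depth and a common total.

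By a fixed rule, the 3 names most like the main name of each family over the 22 libraries were sought by Spearman's rho among the tested names outside the families that average at least 100 RPM. They are the best of a search and carry no test. For miR-128 they were miR-592 (rho 0.71), miR-6331 (0.69) and miR-1843-3p (0.67), each at 0.64 or more within both groups. For miR-129-2-3p they were miR-136-3p (0.54), miR-30d-5p (0.50) and miR-135a-5p (0.50). Of these, miR-136-3p was at 0.04 within control and 0.85 within CPF libraries, and miR-135a-5p at 0.82 and 0.31, a difference that was not tested. For miR-153-3p they were miR-3586-3p (0.70), miR-127-3p (0.64) and miR-551b-3p (0.61). The median rho over all names searched was 0.03 to 0.05 for the 3 main names.

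In RefSeq, 7 mature miRNAs outside the families hold the first 6 bases of a member's seed within their first bases. The 3 with a mean above the floor of every library in either group are shown, because such a run is part of what a target site pairs with. The seed is again in capitals.
miR-27b-3p: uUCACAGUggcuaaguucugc
miR-27a-3p: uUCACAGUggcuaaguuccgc
miR-448-3p: uUGCAUAUguaggauguccca

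The run CACAGU of the miR-128-3p seed starts at position 3 of miR-27b-3p and miR-27a-3p. miR-27a-3p averaged 1632 ± 363 RPM in control and 1693 ± 231 RPM in CPF, with a limma adjusted p of 0.954 for its log2 fold change of 0.07. miR-27b-3p, at 153663 ± 11013 RPM in control and 156103 ± 13819 RPM in CPF (SD, n = 11 each), was far above miR-128 in level and did not pass (log2 fold change 0.02, limma adjusted p = 0.972). The run UGCAUA of the miR-153-3p seed starts at position 2 of miR-448-3p, a miRNA of the choroid plexus. miR-448-3p was at 47.4 ± 31.1 RPM in control and 200.4 ± 275 RPM in CPF and did not pass (log2 fold change 1.83, SE 0.622, limma adjusted p = 0.295). It was shown by its CPF mean alone, as its control mean lay within the range of the floors, 31.6 to 62.7 RPM. Its fold change is therefore not independent of that choice. miR-448-3p is on the choroid plexus and ependyma list, and CPF replicates 7, 8 and 9 had its highest CPF values, 120.3, 532 and 920 RPM. Without them the CPF mean was 79.1 ± 30.0 RPM (SD, n = 8) and the log2 fold change 1.18 (SE 0.616, limma adjusted p = 0.883).

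Other miRNAs linked to neurons and their excitability were counted for comparison (all names of miR-9, miR-124, miR-132, miR-134, miR-135, miR-137, miR-138, miR-184, miR-187, miR-212, miR-218, miR-324 and miR-335). Of 28 names 21 were tested, 2 rose, 0 fell and 19 did not pass, with a median log2 fold change of 0.01 beside 0.02 over all 273 names. Over all 273 names 0.733% were called, and these 2 were the only names called. The list was chosen with earlier results of these data known, so its count is a description. The activity-induced miR-132-3p rose from 698 ± 159 to 1292 ± 362 RPM (SD, n = 11 each), with a limma adjusted p of 0.00131 and a log2 fold change of 0.87. From the neighbouring gene, miR-212-5p rose from 820 ± 106.3 to 1101 ± 129.01 RPM, with a limma adjusted p of 0.00456 and a log2 fold change of 0.43. The most abundant of the list, miR-9a-5p, a miRNA of neural progenitors and neurons, was at 52435 ± 7700 and 50852 ± 7160 RPM, and its other arm miR-9a-3p at 3261 ± 281 and 3011 ± 511 RPM. The synaptic regulator miR-138-5p was at 2287 ± 323 and 2295 ± 190 RPM, and miR-218a-5p at 1210 ± 246 and 1213 ± 208 RPM. The log2 fold changes of these 4 lay between -0.13 and 0.01, and none passed.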

How the data were processed

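Per the labels' protocols, a TruSeq small RNA kit and a HiScanSQ sequencer gave the 22 libraries (11 control, 11 CPF). Each deposited file gives RPM per miRNA name, computed by the authors, per the file headers. Build rn4, cutadapt 1.2, Bowtie, CASAVA 1.8.2 and Partek 6.6 come from the submitters' processing notes, which give no roles. Not given in the sources used here are the annotation and how a read that matches several names was handled.

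Rows of the same name were summed (13 names on 29 rows, no member among them). The file of control replicate 2 stops 36 rows short of 484. Those names were treated as missing. The value of a read was fitted to the low values, of which 91.3 to 97.4% were whole reads within 0.02 RPM. As whole reads could not be recovered in every library, the count tests planned for that case were not run. Every pair of libraries differed by more than sampling noise, the closest with a chi-square of 2.41 for each degree of freedom.

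limma 3.58.1 (R 4.3.3, trend) was fitted to log2(RPM + 1) for the 273 names that reached 10 RPM or more in 11 or more libraries, with p-values adjusted over all of them (Benjamini-Hochberg), two-sided at 0.05. Fold changes are on that scale. Shares and correlations used permutation tests with 100000 resamples (scipy 1.17.1). Members and lists were chosen with earlier results of these data known. All members are named. Of the neuronal list, the 4 highest by mean RPM and any that passed are named, and as most alike in pattern the 3 names with the highest rho. Alternatives were other pseudocounts, filters and scaling, unsummed rows, summed names, the replicate block, code digits and leaving out libraries. Robust limma, RPM without the names high in CPF replicate 1, correlations given the read number, the relation to read number without CPF replicate 1 and leaving out CPF replicates 7, 8 and 9 were added after the data were seen. The marker lists not described in the text took 3.35 to 9.01% of RPM (oligodendrocyte), 0.0788 to 0.376% (thalamus and hypothalamus), 0.00498 to 0.0142% (microglia and leukocytes) and 0 to 0.00795% (red blood cells), with none of their tested names past the threshold.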

Additional observations from a re-analysis of the deposited data

How the results depend on the processing

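Under the settings run, 0 members passed in any (lowest limma adjusted p = 0.198, for miR-128-3p without CPF replicate 3). Its log2 fold change stayed below 0, at -0.40 to -0.23 with a library left out. In the same way miR-128 gave -0.084 to 0.019, miR-129 -0.42 to 0.60, miR-129-2-3p -0.026 to 0.088, miR-129-5p 0.01 to 0.20, miR-153-3p -0.10 to 0.47 and miR-153-5p -0.16 to 0.58. The share of miR-128-3p gave -1.70 to -1.20 points, that of miR-129-1-3p -0.0016 to 0.173 and the miR-129 3p share -1.71 to -0.132. Signs also turned between code digits: miR-128 gave 0.088 (3 against 1) and 0.095 (3 against 4), miR-129 -1.05 (3 against 1), miR-129-2-3p -0.0019 (6 against 4) and -0.22 (6 against 1), miR-129-5p -0.038, miR-153-3p -0.27 and miR-153-5p -0.11 (6 against 4), and miR-153-5p -0.50 (3 against 4). Without CPF replicates 7, 8 and 9, miR-128 gave 0.080 and miR-129 -0.10, while miR-129-5p moved from 0.09 to 0.30 and miR-153-3p from 0.36 to 0.63. The cause was not tested. Of all names 2 were higher and 0 lower in CPF, 2 to 3 and 0 with a library left out (3 without control replicate 6 or CPF replicate 1), and 1, 1 and 0 were higher for digits 3 against 1, 6 against 4 and 3 against 4, with fewer libraries. 1 pair of members passed by r within CPF, and 0 to 1 with a library left out (1 without control replicate 3, 7 or 9). By rho 0 pairs passed in these settings. Replicate numbers did not pair the libraries (r of deviations -0.09 to 0.19 over 11 pairs, 2 over 0.1, 1 control library closest to its own number), and with the replicate block miR-128-3p stayed at -0.33 (limma adjusted p = 0.576), with 2 names higher and 0 lower. Count tests were not run, since whole reads were not recovered in every library. Depth limits miR-129, miR-153-5p and the names under the floor.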
